A study of Bos taurus with 8 samples.

Results

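The features described here are the array probes that carry no gene symbol in the platform annotation, 22013 of the 43794 probes on a bovine embryo array (50.3%). They were chosen by that empty field alone, and the other 21781 probes, which carry a symbol of 15225 different names, are set beside them. A probe without a symbol is unnamed here, which does not mean that it measures no gene. The same annotation gave no accession or gene ID for any probe, and probe sequences were not used here, so the members are described by their probe identifiers and their signals. Their position in the genome was therefore not analysed.

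The RNA came from bovine 2-cell embryos collected at 29.5 hours post-fertilization (hpf), the fast embryos of the series, and at 46 hpf, the slow ones. Both groups came from oocytes of slaughterhouse Holstein ovaries that were matured in vitro and fertilized with semen mixed from 5 bulls, and the presumptive zygotes were stripped of cumulus cells before culture. Total RNA was amplified by T7 transcription, and each of 8 arrays held RNA of both groups, with the 29.5 hpf RNA in Cy5 on 4 arrays and in Cy3 on the other 4. The labels number 4 replicates, which the series calls biological, each with a dye swap; how many embryos made up a sample is not stated in the labels. The design ties collection time to cleavage speed, and fewer cells and less RNA per cell cannot be told apart. All ratios are log2 of 29.5 hpf over 46 hpf, so that a positive value means more signal at 29.5 hpf.

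A mammalian 2-cell embryo lives largely on RNA that the oocyte stored, and in cattle the main activation of the embryonic genome comes at a later cleavage stage. Stored transcripts are translated and degraded on a schedule after fertilization, so the RNA of an early embryo changes even where few genes are transcribed. Embryo arrays of this kind were built partly from sequenced embryo transcripts, and they therefore hold probes for transcribed regions, alternative ends and splice forms beside those for named genes. Which of these a given member measures was not analysed here.

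The arrays did not pair as numbered. Over the tested members, the array numbered 1 with 29.5 hpf in Cy5 had a Pearson correlation of 0.00 with the opposite-dye array of its own number and of 0.60 with the opposite-dye array numbered 2. Number 2 correlated at 0.02 with its own number and at 0.43 with the opposite-dye number 1, while numbers 3 and 4 correlated with their own at 0.65 and 0.68. These are correlations across 15624 probes of the same arrays, which are not independent replicates. The labelled numbers were kept, and the total count of calls is also given with 1 and 2 exchanged among the arrays that carried 46 hpf in Cy5. The tissue label was set against marker genes among the symbol probes. All 12 of 13 oocyte and embryo markers found on the array were detected in all 16 array channels, with a median intensity at percentile 97.3 of all probes. Of 10 cumulus and granulosa markers, 4 were detected in all 16 channels. These were STAR, HAS2, FSHR and INHBA, at intensity percentiles 99.2, 96.6, 66.8 and 78.9. The median signal of that whole list was 176 at 29.5 hpf and 157 at 46 hpf, its part in the results was not tested, and none of its members was called. Of 7 sperm markers and the 2 blood markers on the array, 0 were detected in all 16 channels, though PRM2 was detected in 11 and PTPRC in 9.

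Members gave a dimmer signal than symbol probes. Since a probe's signal depends on its own sequence, only the distributions of both sets are compared. The median background-corrected signal of the members was lowest at 123, with a median of 132 and a highest value of 184, over the 8 channels that held 29.5 hpf RNA. In the 8 channels with 46 hpf RNA it ran from 117 over a median of 132 to 142. The symbol probes had medians of 161 to 215 at 29.5 hpf and of 168 to 201 at 46 hpf. Within a channel the member median lay below the symbol median in all 16 channels, by a log2 difference of -0.48 ± 0.10 (SD over 16 array channels). That difference was -0.42 ± 0.09 at 29.5 hpf and -0.53 ± 0.08 at 46 hpf (SD over 8 channels each). Both groups' channels overlapped, from -0.49 to -0.23 at 29.5 hpf and from -0.66 to -0.40 at 46 hpf.

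The gap between the sets widened in the bright part of the distribution. At the 10th percentile of mean intensity, members had a signal of 86.1 and symbol probes 89.3. At the 75th percentile the values were 292 for members and 628 for symbol probes, and at the 90th percentile 1068 and 2539. At the 99th percentile members stood at 12320 and symbol probes at 20042. Members still made up 20 of the 50 brightest probes on the array, 35 of the brightest 100 and 346 of the brightest 1000, against 50.3% of all probes. Across the array itself they were spread evenly: in 10 bands of 17 rows their share ran from 49.3% to 51.1% of the probes.

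A smaller share of members than of symbol probes was above background, meaning a raw signal past a threshold set in every channel from its own negative controls (their mean and 2 SD on top). At 29.5 hpf 61.6% ± 14.0 of members were detected (SD over 8 channels), and at 46 hpf 66.3% ± 7.66. For symbol probes the shares were 71.1% ± 11.3 at 29.5 hpf and 75.6% ± 6.02 at 46 hpf. The member share was lower in all 16 channels, with a difference between -12.9 and -5.40 percentage points. The groups overlapped, since the member share ran from 44.8% to 80.0% at 29.5 hpf and from 56.0% to 75.5% at 46 hpf. Much of this spread went with the dye. The Cy5 channels gave 44.8% to 57.8% at 29.5 hpf and 56.0% to 64.0% at 46 hpf. The Cy3 channels gave 68.7% to 80.0% and 70.3% to 75.5%, so the groups overlapped within each dye too. The difference from symbol probes was -12.9 to -9.13 percentage points in Cy5 and -8.68 to -5.40 in Cy3. Detection in all 16 channels was seen for 7755 members (35.2%) and for 10479 symbol probes (48.1%). At the other end, 2118 members (9.62%) and 1356 symbol probes (6.23%) were detected in none. The remaining 12140 members were above background in some channels only.

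Of the 22013 members, 15624 (71.0%) passed the filter for testing, which asked that 1 group be detected on 4 arrays or more and that at least 3 replicates hold a value. The other 6389 members were too dim and were not tested. Among symbol probes 17365 (79.7%) were tested. A member could pass through the group in which it was bright, so the counts below describe the tested members and not all of them.

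As a set, the tested members were centred near 0. Their median log2 ratio was 0.01, -0.02, 0.00 and 0.00 in replicates 1 to 4. In the symbol probes it was 0.00, -0.02, -0.03 and -0.01. The difference, members minus symbol probes, was 0.0077, 0.0084, 0.0286 and 0.0093, with a mean of 0.0135 ± 0.0101 (SD, n = 4). With the exchanged numbers replicate 1 gave -0.0165 and replicate 2 gave 0.0352, so that the sign of the difference was not the same in every replicate. Grouped by the number that opens each array's title (140, 141 and 142), the difference averaged 0.0112, 0.0103 and 0.0149 over 3, 2 and 3 arrays, and each of these sets held arrays of both signs.

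Over all tested probes the members' ratios lay closer to 0 than those of symbol probes. The median absolute log2 ratio was 0.182, 0.184, 0.216 and 0.198 in the 4 replicates for members, and 0.197, 0.198, 0.262 and 0.233 for symbol probes. The member value was the lower in each of the 4 replicates, with a mean of 0.195 ± 0.016 against 0.222 for symbol probes (SD, n = 4). The level itself moved with the processing, to 0.126 for members and 0.158 for symbol probes with the left-out spots in the background fit, and to 0.326 and 0.339 in the authors' deposited values. Their replicates also lay closer together: the median SD over replicates was 0.229 for members and 0.253 for symbol probes, and 0.258 and 0.30 with exchanged numbers. The dye effect that remained after normalization had a median size of 0.083 in members and 0.079 in symbol probes.

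Some members passed the test between the groups with the labelled numbers. By limma with Benjamini-Hochberg adjustment over all 32989 tested probes, at an adjusted p under 0.05, 147 members were higher and 126 were lower at 29.5 hpf, 273 in all or 1.75% of the tested members. Over all tested probes 641 were called (1.94%), 1.16% higher and 0.782% lower, so the members' share lay near the background of the array. Symbol probes had 236 higher and 132 lower. The median log2 ratio of the called members was 0.83 for those higher and -0.76 for those lower, and the smallest sizes called were 0.54 and -0.53. A log2 ratio of 1 or more in size was seen for 88 tested members (0.563%), against 0.634% of all tested probes.

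The calls depended on the pairing of arrays. With exchanged numbers limma called 1 member and 5 symbol probes, 0.0182% of all tested, while 1766 members had an unadjusted p under 0.05, against 2439 with the labelled numbers (12.7% and 17.6% of all tested probes). Of the 273 members, 271 had an unadjusted p under 0.05 by limma with exchanged numbers as well, and of all 641 called probes 638 did. Both numberings use the same arrays and mean ratios, and these probes were chosen for a small p, so this is no separate support. The adjusted p of the 273 with exchanged numbers ran from 0.0382 to 0.480, with a median of 0.122. Leaving out replicate 1 or 2 ended all member calls by limma, and leaving out replicate 4 gave 104 (0%, 0% and 0.782% of all tested probes called). Without replicate 1 or 2, 1875 and 1841 members had an unadjusted p under 0.05 by limma. The share of all tested probes at that p is not given here, so these counts are not read as a result about the members. With the replicate number as a random block (replicate block), limma called 902 members (6.5% of all tested probes), including 269 of the 273. The background setting used here was chosen after its effect on the calls had been seen, and a fit with the left-out spots included gave 65 members higher and 81 lower (1.15% of all tested probes called). Median centring in place of loess gave 72 higher and 178 lower (28.8% higher, against 53.8%, with 1.75% of all tested probes called), and the authors' deposited values gave 18 higher and 6 lower (75% higher, with 0.155% of all tested probes called).

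A description that needs no pairing, added after values were seen, was the sign on the single arrays. Of the tested members 989 (6.33%) had 1 sign on all 8 arrays, 512 higher and 477 lower, against 7.15% of all tested probes. Among the 273 called members, 241 had 1 sign on all 8 arrays, and among all 641 called probes 569 did. The called probes were chosen with the labelled numbers on these same arrays, so these counts are no support for the calls.

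With the labelled numbers, calls followed brightness in both sets. Exchanged numbers called 6 probes in all, too few to set out by brightness. The tested probes were ordered by mean intensity and divided into 5 bands of equal size. In the dimmest band, with a mean intensity up to 123, 0.0544% of members and 0.0685% of symbol probes were called. Band 2 gave 0.342% of members and 0.227% of symbol probes, and band 3 gave 1.03% of each set. In band 4, from 314 to 963, the shares were 3.10% of members and 3.03% of symbol probes. In the brightest band they were 5.79% of members and 4.99% of symbol probes. At like brightness the shares of both sets thus lay side by side, while the dimmest band held 23.5% of the tested members and 16.8% of the tested symbol probes. The size of the ratios went the other way in the brightest band alone, where the median absolute log2 ratio was 0.234 in members and 0.214 in symbol probes, with a median SD over replicates of 0.272 and 0.266. Members were 47.4% of the tested probes and 42.6% of those called, and they held 10 of the 20 largest called rises and 10 of the 20 largest called falls.

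The largest fall among called members was that of EMBV3_00090, with log2 ratios of -1.82, -2.21, -1.81 and -2.65 in replicates 1 to 4. Its signal was 505 at the lowest, 1083 at the median and 1853 at the highest over the 29.5 hpf channels, against 1907, 4837 and 11571 over the 46 hpf channels, so the groups did not overlap. The mean log2 ratio was -2.12 ± 0.40 (SD, n = 4; limma adjusted p = 0.0105, and 0.0591 with exchanged numbers). EMBV3_11457 showed almost the same pattern, with -1.82, -2.14, -1.47 and -2.68 in the replicates. Its signal ran from 623 over 1245 to 2076 at 29.5 hpf, against 2098 over 4807 to 12291 at 46 hpf, again without overlap. The mean was -2.03 ± 0.52 (SD, n = 4; limma adjusted p = 0.0114, and 0.0614 with exchanged numbers).

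Both probes were lower on all 8 arrays. Their ratios differed from each other by a root mean square of 0.26 over the 8 arrays, and each was the other's nearest tested probe on the array. The next nearest to EMBV3_00090 was a probe for ARPC5, which belongs to the Arp2/3 complex that starts actin branches, at 0.87. The spots of this pair lay 6 rows and 64 columns apart. Whether both measure 1 transcript was not analysed here.

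Falls of the next size were smaller. EMBV3_32244 gave -0.63, -0.86, -1.997 and -2.02, with a mean of -1.38 ± 0.73 (SD, n = 4), and 1 of its 8 arrays had the opposite sign. EMBV3_03954 gave -1.38, -1.42, -1.68 and -0.87, and its signal of 440 to 991 at 29.5 hpf did not overlap with 1434 to 2279 at 46 hpf. EMBV3_12475 gave -1.65, -1.41, -0.96 and -0.93, with a mean of -1.24 ± 0.35. Its single arrays show what the numbering does. The arrays with 29.5 hpf in Cy5 gave -0.72 for number 1 and -1.82 for number 2, while those with 46 hpf in Cy5 gave -2.58 for number 1 and -0.99 for number 2. With exchanged numbers its SD was 0.64 and its adjusted p by limma 0.134.

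The remaining 10 of the 15 largest falls had log2 ratios from -1.22 for EMBV3_18357 to -0.997 for EMBV3_33613. The most even of them with the labelled numbers was EMBV3_19694, at -1.29, -1.01, -1.12 and -1.23 in the replicates, with an SD of 0.12. With exchanged numbers its SD was 0.23, and that of EMBV3_35660, at 0.12, was the smaller. The brightest was EMBV3_41877, with a median signal of 10241 at 29.5 hpf and 25093 at 46 hpf. Its replicates gave -1.12, -1.01, -0.39 and -1.51, and its signals overlapped between the groups. EMBV3_17607 and EMBV3_33613 were each other's nearest probes at a root mean square of 0.23. Both were at their smallest in replicate 4, at -0.40 and -0.36.

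The largest rise among called members was that of EMBV3_29931, with log2 ratios of 1.65, 1.59, 2.93 and 1.83 in replicates 1 to 4. Its signal was 3200 at the lowest, 5371 at the median and 7135 at the highest at 29.5 hpf, against 881, 1297 and 1893 at 46 hpf, without overlap. The mean was 2.00 ± 0.63 (SD, n = 4; limma adjusted p = 0.0156, and 0.0691 with exchanged numbers). Its nearest probe was another member, EMBV3_11760, with ratios of 1.39, 1.48, 2.74 and 1.40. In both, replicate 3 was the highest, and that of EMBV3_11760 stood far from its other replicates.

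EMBV3_19577 gave 1.58, 1.57, 2.66 and 2.16, with a signal of 596 to 1876 at 29.5 hpf against 227 to 329 at 46 hpf. Its mean of 1.99 ± 0.52 (SD, n = 4; limma adjusted p = 0.0119, and 0.0641 with exchanged numbers) came from all 8 arrays in 1 direction. EMBV3_20192 gave 1.68, 1.38, 1.64 and 2.15, and EMBV3_36692 gave 1.77, 1.496, 1.38 and 2.14. The 2 probes, 101 columns apart in the same row, differed by a root mean square of 0.17, the closest pair among the 30 members named for the size of their change. Their next nearest probe was of HNRNPH1, an RNA-binding regulator of splicing, at 0.37 and 0.40.

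EMBV3_01454 and EMBV3_28769 formed another such pair, at a root mean square of 0.21. EMBV3_01454 gave 1.09, 0.81, 2.62 and 2.11 in the replicates, and EMBV3_28769 gave 0.98, 0.71, 2.42 and 1.79. Both were thus higher in replicates 3 and 4 than in 1 and 2, and their SDs of 0.85 and 0.78 were among the widest of the called rises. EMBV3_32328 had the widest, 0.87, with 2.06, 2.07 and 2.03 in replicates 1, 2 and 4 and 0.31 in replicate 3. EMBV3_18725 was likewise lowest in replicate 3, at 0.87 against 1.67, 1.69 and 1.72 in the others.

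The 1 member that limma called with either numbering was EMBV3_08545. Its log2 ratios were 1.33, 1.45, 1.33 and 1.49 in replicates 1 to 4, and its single arrays ran from 1.25 to 1.72. The signal was 27711 at the lowest, 34624 at the median and 35118 at the highest at 29.5 hpf, against 10035, 13484 and 15471 at 46 hpf, so the groups did not overlap. The median over the pixels of its spot was between 34916 and 49753 at 29.5 hpf and between 11977 and 20177 at 46 hpf, where 65535 was the highest pixel median of any probe. Whether clipped pixels lowered its 29.5 hpf signal was not tested. The mean log2 ratio was 1.40 ± 0.08 (SD, n = 4; limma adjusted p = 0.0105, and 0.0382 with exchanged numbers). The nearest probe was again a member, EMBV3_14557, with a log2 ratio of 1.33 and a root mean square difference of 0.26, and the next was of SMAD1, a transducer of BMP signals, at 0.27. Leaving out replicate 1 or 2 ended the call for this member too.

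The other rises among the 15 largest had log2 ratios between 1.39 and 1.48. EMBV3_19494 gave 1.18, 1.39, 2.11 and 1.23, and its nearest probe was of HERC2, a ubiquitin ligase, at a root mean square of 0.19. EMBV3_32357 gave 1.31, 1.34, 1.85 and 1.17, and its nearest was of RRM1, the large subunit of ribonucleotide reductase, at 0.24. EMBV3_22343 gave 0.83, 0.72, 2.07 and 1.92, and EMBV3_03990 gave 1.57, 1.30, 2.36 and 0.50, so replicate 3 was highest in both. EMBV3_04018 gave 1.13, 0.97, 1.97 and 1.51.

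Over all 30 members named for the size of their change, 28 had 1 sign on all 8 arrays. The nearest tested probe by root mean square over the 8 arrays was another member for 16 and a symbol probe for 14, with distances from 0.17 to 0.47. This comparison and the symbol probes named by it were chosen after values were seen, and a like ratio was read as nothing more. With exchanged numbers 11 of the 15 rises and 12 of the 15 falls had a larger SD over replicates. These members were called with the labelled numbers, which favours a small SD there. Over all tested probes the median SD was 0.241 with the labelled and 0.280 with the exchanged numbers.

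The 5 called members with the smallest SD were chosen for evenness over the labelled replicates, and they changed less than the 30 above. EMBV3_30900 gave 0.71, 0.76, 0.69 and 0.76, a mean of 0.73 ± 0.04 (SD, n = 4), though its single arrays ran from 0.39 to 1.10 and its SD was 0.20 with exchanged numbers. EMBV3_01733 gave -0.92, -0.90, -0.82 and -0.81, with a signal of 98.6 to 170 at 29.5 hpf, against 209 to 289 at 46 hpf, and an SD of 0.05 with either numbering. EMBV3_09144 gave -0.63, -0.53, -0.62 and -0.65 at a median signal of 7343 at 29.5 hpf and 12000 at 46 hpf. EMBV3_20829 had a mean of -0.57 ± 0.04 and EMBV3_15584 of -0.57 ± 0.04 (SD, n = 4 each). With exchanged numbers the SD was 0.10 for EMBV3_20829 and 0.06 for EMBV3_15584. All 5 had 1 sign on all 8 arrays.

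The 10 brightest members had log2 ratios near 0, on spots close to the top of the scale. EMBV3_31404 had a median signal of 37718 at 29.5 hpf and 39386 at 46 hpf, with log2 ratios of 0.06, -0.07, -0.03 and -0.09. Over the 10, median signals ran from 36112 to 38591 at 29.5 hpf and from 36406 to 39386 at 46 hpf. Their mean log2 ratios lay between -0.08 for EMBV3_35346 and 0.08 for EMBV3_20623, and none was called by limma. The smallest unadjusted p among them was 0.431. Their pixel medians reached 65535, the highest value of any probe, in both groups, and 16 of their 160 spot readings stood at that value. Ratios near 0 on these spots therefore do not show that the members were at like levels.

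The 6 members with the largest difference in detection between the groups were dim, and since they were chosen for that difference their values are a description. EMBV3_05494 was above background on 7 of 8 arrays at 29.5 hpf and on 0 of 8 at 46 hpf, with log2 ratios of 1.28, 1.08, 0.80 and 0.12. Since it was not well above background at 46 hpf, its signal there is only a bound. Its measured means differed 1.76-fold, brighter at 29.5 hpf, with 1 of 8 arrays in the opposite direction, and it was not called. EMBV3_24604 was detected on 6 arrays at 29.5 hpf and on 0 at 46 hpf. Its measured means differed 1.42-fold, brighter at 29.5 hpf, and it was not called either. A lower bound was sought by setting the normalized 29.5 hpf mean against, for each array, the higher of the probe's own value and the lowest value among detected probes. It gave the measured folds again for both probes, so no separate bound is given. Each group was measured on 4 arrays in each dye.

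In the opposite direction, EMBV3_19568 was detected on 1 array at 29.5 hpf and on 8 at 46 hpf, with -0.80, -0.66, -0.85 and 0.08 in the replicates. EMBV3_06050 was detected on 2 and 8 arrays, and EMBV3_37488 on 1 and 7, at 29.5 hpf and 46 hpf. Their mean log2 ratios were -0.74 ± 0.43 and -0.56 ± 0.31 (SD, n = 4 each). EMBV3_04323, also detected on 2 arrays at 29.5 hpf and on 8 at 46 hpf, is the 1 of the 6 that stands among the 273 called members, having passed the filter through its 46 hpf channels. It gave -0.93, -0.66, -0.79 and -0.69, a mean of -0.77 ± 0.12 (SD, n = 4), with an SD of 0.23 with exchanged numbers. Its signal was 87.1 to 159 at 29.5 hpf and 153 to 202 at 46 hpf, so the ranges overlapped.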

How the data were processed

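Each array carried 45212 named spots, 43794 of them probes and 1418 controls. Per the file headers, the deposited scanner files give intensity on a linear scale, as the mean spot signal, the median over the spot's pixels and the median local background in the Cy3 and Cy5 channels, with no normalization. Another column, of unit other per the file headers, marks with 1 each spot that the image software left out, 28 to 186 per array. The authors' deposited value table holds log2 ratios for 43776 probes, 21995 of them members. How the authors normalized it is not stated in the labels, its column medians were from -0.0151 to 0.0120, and its slopes of 1.05 to 1.12 on the turned ratios computed here show that it runs as 29.5 over 46 hpf. It served as an alternative.

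Signals were background-corrected by normexp (offset 50), followed by loess on every single array (limma 3.58.1, R 4.3.3), with control and left-out spots at weight 0. The sign was turned where 46 hpf was in Cy5, arrays of 1 number were averaged, and the mean of 4 values was tested against 0 with lmFit and eBayes, two-sided. The p-values rest on the spread of 4 labelled replicates, which the series calls biological, and the number of arrays limits the precision. Arrays numbered 1 and 2 correlated at 0.00 and 0.02 with the opposite-dye array of their own number, over the tested members. If their labels are wrong, the averages for numbers 1 and 2 each mix samples, and the spread is not that of 4 replicates. Each SD with n = 4 shares this limit. The median SD of called members, chosen with the labelled numbers, was 0.223, and 0.314 with exchanged numbers. Which pairing is right was not tested. The test was checked on simulated data in which every dye swap was numbered correctly, so the check does not cover a wrong pairing of arrays.

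The members and lists were chosen with earlier results of these data known. The left-out spots were also kept out of the normexp fit. This was decided after 5 sources of values and their call counts had been seen. The reason was that with these spots in the fit the estimated background mean fell in several channels. It went down to -352 in 1 channel and -270 in another, against -49.9 to 51.1 without them, and hardly moved in others. The form of the detection threshold was likewise taken from about 10 tried, as the one whose number of tested probes came nearest to an earlier analysis.

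Members were named where they had 1 of the 15 largest rises or 15 largest falls of those called with 1 sign in all replicates, were among the 10 brightest or the 5 called with the smallest SD, were called with exchanged numbers, or were among the 6 whose detection differed most between the groups. The nearest-probe comparison and the symbols it names were added after values were seen. After the mean over all arrays was taken off, dye-swapped arrays correlated at -0.30 and -0.29 within numbers 1 and 2 and at 0.42 and 0.48 within numbers 3 and 4, over the members. Alternatives covered background, normalization, filter, pairing, blocks, variance model, fold threshold, detection threshold and left-out replicates. Classes by other annotation fields were planned and not made, since these fields were empty in the table used.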

Additional observations from a re-analysis of the deposited data

Results flagged for a closer look

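In 62 groups of 4 or 8 values, 7 held a value far from the others by Dixon's ratio of the gap to the whole range. Chance gives about 1 in 20 only for independent values, so that rate does not apply here. The groups share the same arrays, and most named members were chosen for the size of their change. Arrays numbered 1 and 2 also did not pair as labelled. If those labels are wrong, the averages for 1 and 2 each mix the same samples and would lie close together. The count of 7 is therefore a description only. Among named members, replicate 3 stood apart for 4. It was high for EMBV3_11760, with a ratio of 0.932, and low for EMBV3_32328, EMBV3_18725 and EMBV3_35346, with ratios of 0.979, 0.947 and 0.908. The difference in median log2 ratio, members minus symbol probes, was also highest in replicate 3, with a ratio of 0.926. Over the channels with 29.5 hpf RNA, the Cy5 channel of replicate 3 stood apart, at 184 for the member median signal (ratio 0.567) and at -0.23 for the log2 signal difference, members minus symbol probes (ratio 0.625).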

How the results depend on the processing

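The count of 273 called members moved with the processing, by limma at an adjusted p under 0.05 throughout, and the cause was not tested where none is named. It was 146 with the left-out spots in the normexp fit, 429 with the strict filter, which tests 7755 members (5.67% of all tested probes called), and 24 with the authors' deposited values. It was 902 with the replicate block, 673 with the replicate block and a dye intercept (4.67% of all tested), and 1034 with the title number as a block (7.4%). The first 2 fits took arrays of 1 number to correlate at 0.128 and 0.206, and the third had no term for dye-swapped pairs. They count single arrays largely as samples, so their larger counts add no support. Arrays numbered 1 and 2 did not pair as labelled, and those numbered 3 and 4 did. Exchanged numbering gave 1 call, and 559 (3.92%) as a random block with a correlation of 0.447, including 264 of the 273. A minimum log2 change of 0.2 gave 52 (0.373%). Leaving out 1 replicate gave 0 to 198 (0% to 1.41% of all tested probes). Replicates 3 and 4 alone gave 0 calls (0% of all tested probes called). There 1686 members had an unadjusted p under 0.05 by limma, and the share of all tested probes at that p is not given here. The other 7 alternatives gave 219 to 274 (1.4% to 1.95% of all tested probes). 1 of them, quantile normalization of mean intensities between arrays, leaves the ratios unchanged, so its 273 could not differ. No named member's call changed direction. The median absolute log2 ratio of members, 0.195, was 0.153 without background correction, 0.126 with left-out spots in the fit, 0.326 in the authors' values, 0.166 without a filter, 0.237 with the strict filter and 0.188 to 0.199 without 1 replicate. It stayed under the symbol value in each. The difference in median log2 ratio was 0.0410 with median centring and 0.0085 to 0.0154 without 1 replicate. The signal difference was -0.64 after subtraction of local background, and -0.49 to -0.46 without 1 replicate. Detection was 57.2% to 68.5% of members under other thresholds and 63.2% to 64.4% without 1 replicate. The median SD was 0.258 with exchanged numbers. Of 36 called named members, 35 lost their call with exchanged numbers and 36 without replicate 1 or 2. Detection over local background SD was not run.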
